A study of Drosophila melanogaster with 2 samples.

Results

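The mRNAs of DNA replication genes were followed in RNA immunoprecipitation (RIP) libraries of Drosophila melanogaster ovary. RIP pulls a protein out of a lysate with an antibody and sequences the RNA that comes along. Members were taken by gene symbol: 22 genes matched a pattern for the Mcm, Orc, RfC, Psf, RPA and Rnr families and 20 more were named one by one, which gave 42 of the 17720 genes in the tables. A 21st named gene, Cdc45, is in the tables under an older symbol, and so are the DNA polymerases. These are described separately below. The Lsd1-RIP library came from an antibody against Lsd1, an enzyme that takes methyl groups off histones. The control, titled IgG-RIP, carries the label of an anti-GFP antibody. Both used wild-type Oregon-R ovaries, dissected no later than 12 hours after eclosion from about 200 females per RIP, and the lysate was shared out between the antibodies. Each group had 1 library and no replicate, so the groups could not be tested against each other, and p-values are absent.

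Replication starts with licensing. The origin recognition complex (ORC) binds DNA, and Cdc6 and Dup load the Mcm2-7 helicase ring there, while geminin inhibits Dup. At S phase the kinases CycE-Cdk2 and Cdc7-Chif switch the ring on with Cdc45 and the GINS complex, DNA polymerases copy the strands on the PCNA clamp, ribonucleotide reductase supplies nucleotides, and E2f, Dp and Rbf set the transcription of many of these genes. In the fly ovary, germline nurse cells and somatic follicle cells replicate their genomes repeatedly without dividing, and follicle cells later amplify eggshell genes from licensed origins.

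Levels are the deposited FPKM, in which the fragments of a gene are divided by its transcript length and by library size, with their deposited lower and upper bounds. After 1 was added to each FPKM, the log2 of Lsd1-RIP divided by IgG-RIP was taken as the ratio of a gene, which understates the difference of genes of low FPKM, and a plain fold is the ratio of the FPKM. Intervals on ratios lie 2 standard errors either way, from the bounds. They leave out how far a repeated RIP would vary. Genes are called eligible where each library has a usable estimate and the mean FPKM is at least 1. They were 6025 of all genes and 39 of the 42 members. The median ratio of eligible genes was 0.32, a 1.25-fold offset with 1 added, with the middle 50% of genes between 0.13 and 0.52, so members are set against 0.32. Whether FPKM bounds overlap between libraries makes no allowance for this offset, and the share of all genes without overlap was not counted.

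Outside ribosomal RNA loci, the members held 6945 approximate fragments, 0.578% of the total, in the Lsd1-RIP library and 6207, or 0.597%, in the IgG-RIP library. Eligible members rested on 11.0 to 724 approximate fragments in the Lsd1-RIP library (median 142) and 17.4 to 800.0 in the IgG-RIP library (median 126). The label of ovary was set against marker genes. All 8 germline markers and 8 of 9 follicle and somatic ovary markers reached a mean FPKM of 1. All 6 muscle sheath markers and 3 of 4 gut markers did too, while fat body (0 of 4), hemocyte (0 of 3) and testis (0 of 4) markers did not. Summed germline markers had an FPKM of 262 in the Lsd1-RIP and 143 in the IgG-RIP library, follicle and somatic ovary markers 460 and 397, muscle markers 140 and 154, and gut markers 24.4 and 14.2. Markers within a type could differ in direction. Of the follicle and somatic ovary markers, Yp1, Yp2 and Yp3 had the highest FPKM, and Vml and cas were lower in the Lsd1-RIP library. Of the muscle markers, Mhc, wupA and the gene up were lower there, and Act57B, Mlc2 and Tm1 were higher. A level in a bulk lysate cannot tell fewer cells of a type from less RNA per cell. The part of these cell types in the ratios below was not tested.

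As a list, the replication gene mRNAs lay where all genes lay. Their median ratio was 0.31, against 0.32 for all eligible genes, and 19 of 39 were above that median. By this ratio, which adds 1 to each FPKM, no eligible member was 2-fold higher or lower in the Lsd1-RIP library, against 2.12% of eligible genes past 2-fold in the higher direction and 0.697% in the lower. The interval of 7 members (17.9%) lay wholly above the all-gene median, against 17.5% of eligible genes, and that of 4 members (10.3%) wholly below it, against 12.7%. These shares are near the background. Within the list, dup, CycE, Cdc7, dap, Rbf, Dp and Top2 were the 7 above, and Psf1, Mcm7, geminin and RnrL the 4 below. By level, 34 of 39 (87.2%) had a higher FPKM in the Lsd1-RIP than in the IgG-RIP library, and Mcm7, Psf1, Psf2, Sld5 and geminin had a lower one. Most eligible genes were higher too, since the lower quartile of their ratio, 0.13, was positive. Their exact share was not counted, so the 34 are not read as a trait of the list.

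**Figure D1:**
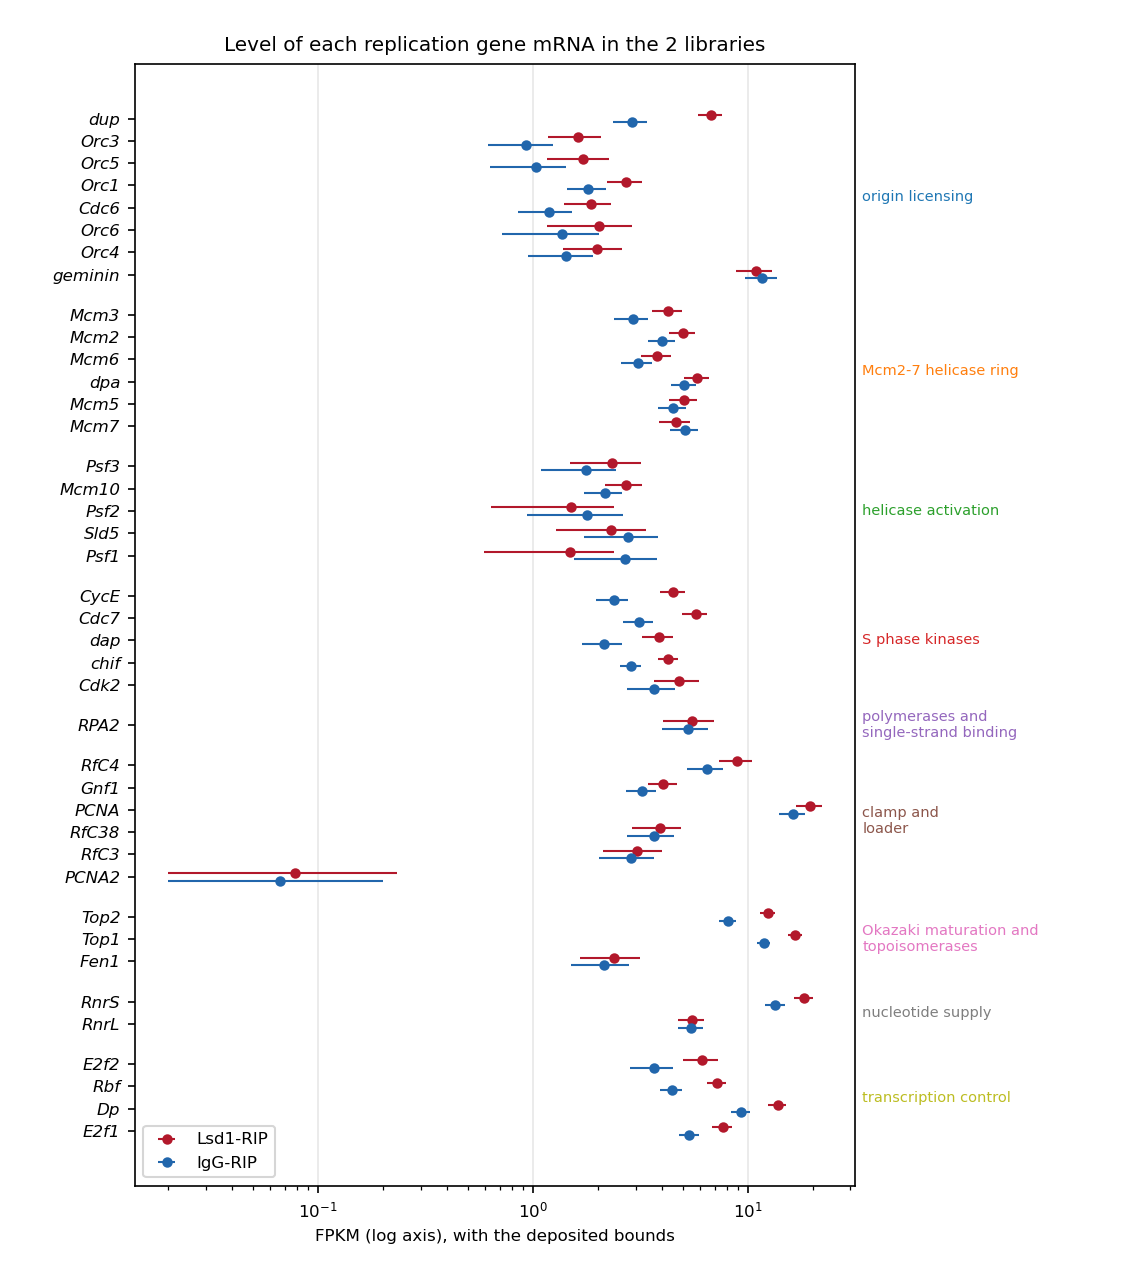
FPKM (log axis) of 40 replication gene mRNAs by role, with the Lsd1-RIP library in red above the IgG-RIP library in blue and bars for the deposited bounds (drawn from 0.02 where a bound is lower). PCNA, RnrS and Top1 have the highest FPKM and PCNA2 the lowest, and dup shows the widest gap between libraries; Orc2 and RPA3, listed at 0 in both, are not drawn.

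Origin licensing held the highest ratio of all members and one of the lowest. dup, the fly Cdt1 that loads the helicase, had an FPKM of 6.70 (bounds 5.83 to 7.57) in the Lsd1-RIP library, against 2.88 (2.37 to 3.40) in the IgG-RIP library. The bounds did not overlap. Its ratio was 0.99 (interval 0.74 to 1.24), 2.32-fold by plain FPKM, which placed it 138th from the top among the 6025 eligible genes. geminin, the inhibitor of Dup, had an FPKM of 10.9 (8.82 to 12.9) in the Lsd1-RIP library and 11.6 (9.68 to 13.6) in the IgG-RIP library, a ratio of -0.09 (interval -0.43 to 0.24). Its bounds overlapped between libraries, and its interval ended below the all-gene median. The geminin mRNA was therefore 1.62 times the dup mRNA by FPKM in the Lsd1-RIP library and 4.04 times in the IgG-RIP library, and their ratios were 1.08 apart on the log2 scale with intervals that did not overlap.

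The dup locus (2R:15376619-15380988) overlaps SRPK, a splicing factor kinase gene, which had an FPKM of 13.3 in the Lsd1-RIP and 8.88 in the IgG-RIP library. The libraries do not mark strand, so fragments in the shared stretch cannot be assigned by strand. With the approximate fragments of dup and SRPK summed, the log2 ratio was 0.73, against 1.15 for dup alone and an all-gene median of 0.43 by that measure. Divided by genes of like implied length or like FPKM, dup stayed 0.59 and 0.60 above them. The geminin locus (2R:6655463-6656594) overlaps no other listed gene.

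ORC subunit mRNAs were at low levels, with ratios near each other once 1 was added to each FPKM. Of the 6 subunit genes, 5 were eligible, with an FPKM of 1.62 to 2.71 in the Lsd1-RIP library and 0.926 to 1.81 in the IgG-RIP library. Orc3 had the highest ratio, 0.45 (interval 0.11 to 0.78), from an FPKM of 1.62 in the Lsd1-RIP and 0.926 in the IgG-RIP library. Orc5 was at 0.42, Orc1 at 0.40, Orc6 at 0.35 and Orc4 at 0.30, a spread of 0.15 from end to end, with 4 of the 5 over the all-gene median but no interval clear of it. Cdc6, the loading ATPase, had an FPKM of 1.86 in the Lsd1-RIP and 1.19 in the IgG-RIP library and a ratio of 0.39 (0.06 to 0.71). The pseudocount weighs on genes this low: by plain fold Orc3 was 1.75, Orc5 1.67, Cdc6 1.56, Orc6 1.48 and Orc4 1.39, against 2.32 for dup. These folds are not to be set against the 1.25-fold offset, which has 1 added. With a pseudocount of 0.1, the eligible ORC genes ran from 0.03 (Orc4) to 0.33 (Orc3) above the all-gene median.

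Several licensing genes shared their locus with a neighbour. Cdc6 lies inside Zasp66, and Orc1, Orc4, Orc5 and Orc6 overlap PIG-G, asRNA:CR43257, GatC and Sting, in that order. Orc3 lies inside CG34315, which was listed at 0 in both libraries. Orc6 rested on 22.3 approximate fragments in the Lsd1-RIP and 17.4 in the IgG-RIP library. Orc2 was listed at 0 in both libraries and overlaps rdx, which had an FPKM of 19.5 in the Lsd1-RIP and 16.1 in the IgG-RIP library. A 0 in such tables can be a failed estimate, so nothing is said of the level of Orc2. With members that overlap a gene listed above 0 left out, Orc3 and geminin remained. The median of the role group, 0.07 above the all-gene median over 8 members, was then 0.15 below it over those that remained.

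The Mcm2-7 ring was even in level and mostly just under the all-gene median. The 6 subunit mRNAs spanned an FPKM of 3.78 to 5.82 in the Lsd1-RIP library, 1.54-fold from lowest to highest, and 2.91 to 5.10 in the IgG-RIP library, 1.75-fold. Mcm3 had the highest ratio, 0.43 (interval 0.16 to 0.70), with an FPKM of 4.26 (3.58 to 4.95) in the Lsd1-RIP and 2.91 (2.39 to 3.43) in the IgG-RIP library. dpa, which encodes Mcm4 and was the most abundant of the 6 by mean FPKM though not in the IgG-RIP library, had 5.82 (5.02 to 6.62) in the Lsd1-RIP and 5.07 (4.38 to 5.76) in the IgG-RIP library and a ratio of 0.17 (-0.07 to 0.40). Mcm2, Mcm6 and Mcm5 were at 0.26, 0.23 and 0.15.

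Mcm7 stood at the low end of the ring. It had an FPKM of 4.61 (3.86 to 5.36) in the Lsd1-RIP library and 5.10 (4.36 to 5.84) in the IgG-RIP library, a ratio of -0.12 (interval -0.38 to 0.14). Its bounds overlapped between libraries, and its interval ended below the all-gene median. Against genes of like implied length Mcm7 was 0.46 lower. The ring's median was 0.20, with 1 of 6 above the all-gene median. Mcm7 (3L:8891596-8894310) overlaps an antisense RNA gene listed at 0 in both libraries.

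Helicase activation genes had a median ratio of -0.15 over 5 members, with 0 above the all-gene median, but rested on few fragments. Mcm10, which helps the ring open DNA, was the best measured, with 105 approximate fragments in the Lsd1-RIP and 98.4 in the IgG-RIP library. Its FPKM was 2.70 (2.17 to 3.23) in the Lsd1-RIP and 2.17 (1.73 to 2.60) in the IgG-RIP library, a ratio of 0.22 (-0.06 to 0.51). The 4 GINS subunits had between 11.0 and 30.7 approximate fragments in the Lsd1-RIP library and between 17.9 and 28.0 in the IgG-RIP library.

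Within GINS, Psf1 had an FPKM of 1.49 (0.593 to 2.40) in the Lsd1-RIP library and 2.68 (1.55 to 3.80) in the IgG-RIP library, the lowest ratio of all eligible members at -0.56 (interval -1.24 to 0.12). The bounds overlapped between libraries. Sld5, the most abundant of the role group by mean FPKM, had 2.31 (1.28 to 3.34) in the Lsd1-RIP and 2.77 (1.72 to 3.81) in the IgG-RIP library, a ratio of -0.19 (-0.79 to 0.42). Its interval spanned the all-gene median, as did that of Psf2, at -0.15. Psf3 was at 0.27 (-0.23 to 0.78), with an FPKM of 2.34 (1.49 to 3.18) in the Lsd1-RIP and 1.76 (1.09 to 2.42) in the IgG-RIP library, and it overlaps CG17841. With members under 20 fragments in a library left out, the role group was 0.07 below the all-gene median, against 0.47 below with all 5.

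**Figure D2:**
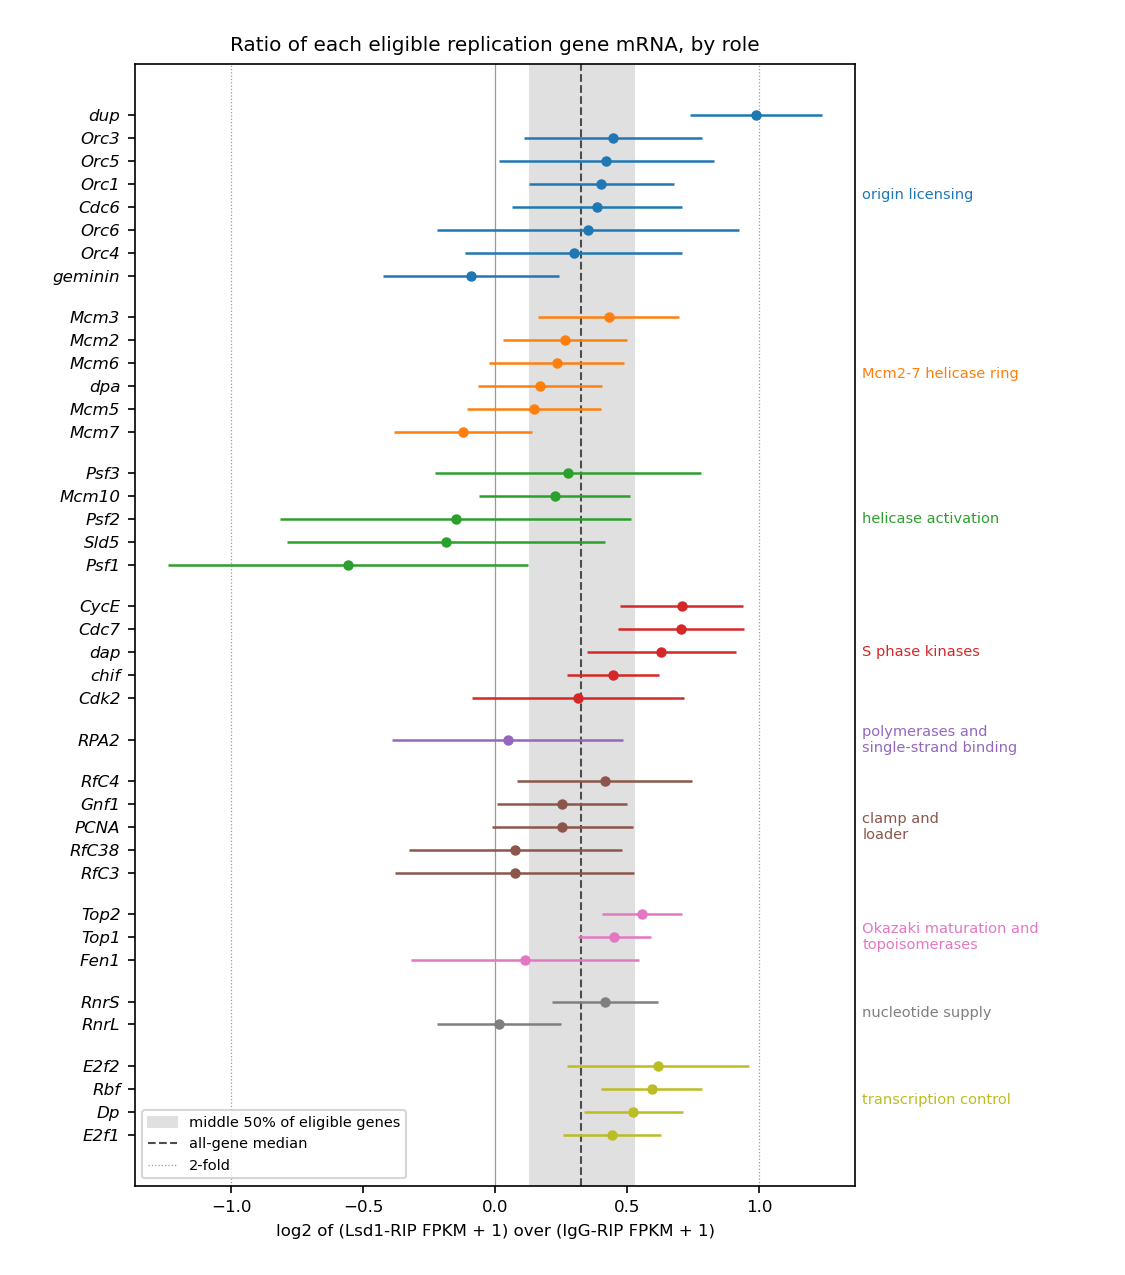
Ratio of each of the 39 eligible replication gene mRNAs, grouped by role, with bars for the interval of 2 standard errors, a dashed line at the all-gene median of 0.32, grey for the middle 50% of eligible genes and dotted lines at 2-fold. dup is highest at 0.99 and Psf1 lowest at -0.56, and all 4 transcription control genes lie right of the dashed line while all 5 helicase activation genes lie left of it.

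The S phase kinase group, which takes in kinases and their regulators, had a median ratio of 0.63, the value of dap. Of its genes, 4 of 5 were above the all-gene median. The group median was the highest of the role groups at a pseudocount of 1 but not at 5. There the group stood 0.15 above the all-gene median, against 0.20 for transcription control and 0.19 for Okazaki maturation and topoisomerases. CycE, the S phase cyclin, had an FPKM of 4.50 (3.89 to 5.11) in the Lsd1-RIP library and 2.37 (1.97 to 2.77) in the IgG-RIP library, a ratio of 0.71 (interval 0.47 to 0.94). Cdc7, the kinase that phosphorylates the Mcm ring, was the most abundant of the group by mean FPKM though not in the IgG-RIP library, with 5.71 (4.96 to 6.46) in the Lsd1-RIP and 3.12 (2.62 to 3.63) in the IgG-RIP library and a ratio of 0.70 (0.46 to 0.94). dap, an inhibitor of CycE-Cdk2 of the p21 and p27 family, had 3.85 (3.21 to 4.50) in the Lsd1-RIP and 2.14 (1.69 to 2.59) in the IgG-RIP library and a ratio of 0.63 (0.35 to 0.91). For these 3 genes the ratio intervals lay wholly above the all-gene median.

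Their partners were nearer that median. chif, the fly Dbf4 that activates Cdc7, had an FPKM of 4.26 in the Lsd1-RIP and 2.86 in the IgG-RIP library and a ratio of 0.44 (interval 0.27 to 0.62). Cdk2, the kinase bound by CycE, had the lowest ratio of the group at 0.31 (-0.09 to 0.71), with 4.78 (3.65 to 5.91) in the Lsd1-RIP and 3.66 (2.73 to 4.58) in the IgG-RIP library. By FPKM, the Cdk2 mRNA was 1.06 times the CycE mRNA in the Lsd1-RIP library and 1.54 times in the IgG-RIP library, while CycE was 1.17 and 1.11 times dap. Loci of CycE, chif and Cdk2 overlap genes that were listed at 0 in both libraries, and those of Cdc7 and dap overlap none.

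The 4 transcription control genes were all above the all-gene median, at 0.44 to 0.62, with a median of 0.56. E2f2, the repressor E2f, had an FPKM of 6.14 (4.98 to 7.29) in the Lsd1-RIP and 3.66 (2.84 to 4.47) in the IgG-RIP library, a ratio of 0.62 (interval 0.27 to 0.96). Rbf, the retinoblastoma-family corepressor, had 7.18 (6.45 to 7.91) in the Lsd1-RIP and 4.42 (3.89 to 4.95) in the IgG-RIP library, a ratio of 0.59 (0.40 to 0.78). Dp, the common partner of both E2f proteins, was the most abundant, with 13.8 (12.4 to 15.1) in the Lsd1-RIP and 9.28 (8.30 to 10.3) in the IgG-RIP library and a ratio of 0.52 (0.33 to 0.71). The ratio intervals of Rbf and Dp lay wholly above the all-gene median, and those of E2f2 and E2f1 spanned it.

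E2f1, the activator E2f, had an FPKM of 7.62 (6.82 to 8.41) in the Lsd1-RIP and 5.35 (4.78 to 5.92) in the IgG-RIP library and the lowest ratio of the group, 0.44 (interval 0.26 to 0.63). By approximate fragments it was at 0.28, below the all-gene median of 0.43 for that measure. Its FPKM and fragment ratios were over 0.2 apart on the log2 scale, as were those of Top1 and of no other member with 20 or more fragments in each library. The Dp mRNA was the larger of the pair in both libraries: E2f1 was 0.554 times Dp by FPKM in the Lsd1-RIP and 0.576 times in the IgG-RIP library.

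The sliding clamp was the most abundant member. PCNA had an FPKM of 19.5 (16.8 to 22.2) in the Lsd1-RIP library and 16.2 (13.96 to 18.4) in the IgG-RIP library, above 91.8% of eligible genes by mean FPKM, with a ratio of 0.25 (interval -0.01 to 0.52). PCNA2, its paralogue, had 0.0778 and 0.0666, 1 approximate fragment in each library, too few for a comparison. The 4 members of the clamp loader RFC, which opens PCNA and closes it around DNA, spanned 3.04 to 8.92 in the Lsd1-RIP library. In the IgG-RIP library they spanned 2.84 to 6.45. These 4 mRNAs were less even than those of the Mcm ring, 2.93-fold from lowest to highest in the Lsd1-RIP and 2.27-fold in the IgG-RIP library. RfC4 was at the top in level and ratio, with 8.92 (7.35 to 10.5) in the Lsd1-RIP and 6.45 (5.21 to 7.69) in the IgG-RIP library and a ratio of 0.41 (0.08 to 0.75). Gnf1, the large subunit, was at 0.25 and RfC38 and RfC3 at 0.07 each. RfC3 had 3.04 (2.12 to 3.97) in the Lsd1-RIP and 2.84 (2.02 to 3.67) in the IgG-RIP library. The intervals of all 5 eligible clamp and loader genes spanned the all-gene median.

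Among topoisomerases, which relieve the torsion ahead of forks, Top2 had an FPKM of 12.3 (11.4 to 13.3) in the Lsd1-RIP and 8.07 (7.38 to 8.77) in the IgG-RIP library, a ratio of 0.56 (interval 0.40 to 0.71). Top1 had 16.6 (15.4 to 17.8) in the Lsd1-RIP and 11.9 (11.0 to 12.7) in the IgG-RIP library, a ratio of 0.45 (0.31 to 0.59). The ratio interval of Top2 lay wholly above the all-gene median, and that of Top1 spanned it. By approximate fragments Top1 was at 0.08 and Top2 at 0.52, against the all-gene median of 0.43. Fen1, the flap nuclease that trims Okazaki fragments, had 2.40 (1.66 to 3.13) in the Lsd1-RIP and 2.14 (1.498 to 2.79) in the IgG-RIP library, a ratio of 0.11 (-0.32 to 0.54), and overlaps IntS8.

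The subunits of ribonucleotide reductase differed in level and in ratio. RnrS, the small subunit, had an FPKM of 18.2 (16.4 to 20.1) in the Lsd1-RIP library and 13.4 (12.0 to 14.9) in the IgG-RIP library, a ratio of 0.42 (interval 0.22 to 0.62). RnrL, the large subunit, had 5.50 (4.73 to 6.27) in the Lsd1-RIP library and 5.44 (4.73 to 6.16) in the IgG-RIP library, a ratio of 0.01 (-0.22 to 0.25), wholly below the all-gene median. The bounds of RnrS did not overlap between libraries, though its ratio interval spanned the all-gene median, and the bounds of RnrL did overlap. The RnrS mRNA was 3.31 times the RnrL mRNA in the Lsd1-RIP and 2.47 times in the IgG-RIP library. The ratio intervals of the subunits overlapped by little, from 0.22 to 0.25.

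Outside licensing, loci of Mcm3, Psf3, RfC38, Fen1, E2f2, Dp, E2f1 and RPA3 also overlap genes listed above 0, which makes 15 members in all. RfC38 shares its locus with Nup160, which had an FPKM of 3.30 in the Lsd1-RIP and 2.52 in the IgG-RIP library, and the part of such neighbours in the ratios was not tested.

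Replication protein A coats single-stranded DNA at forks. RPA2 had an FPKM of 5.47 (4.01 to 6.93) in the Lsd1-RIP library and 5.27 (3.98 to 6.55) in the IgG-RIP library, a ratio of 0.05 (interval -0.39 to 0.49). RPA3 was listed at 0 in both and overlaps CG1703, which had 9.29 in the Lsd1-RIP and 11.0 in the IgG-RIP library. The large subunit, listed as RpA-70 and so outside the symbol rule, had 6.36 in the Lsd1-RIP and 4.995 in the IgG-RIP library and a ratio of 0.30 (0.04 to 0.55).

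DNA polymerase genes were found through their positions in NCBI's Release 6 plus ISO1 MT annotation, which pairs the older symbols of the tables with PolA, PolD, PolE and Prim symbols. Of 10 such genes, of which CG12018 and Pol32 were added after values were seen, 6 were eligible, and their median ratio was 0.18 with 1 of 6 above the all-gene median. That median takes in Mes4, listed at 0 in the Lsd1-RIP library, which can be a failed estimate. Without Mes4 the middle gene was DNApol-alpha60 (Prim2), at 0.24. At the top, DNApol-alpha73 (PolA2) was at 0.40 (interval 0.07 to 0.73), from an FPKM of 2.92 in the Lsd1-RIP and 1.98 in the IgG-RIP library. The catalytic subunits were at 0.32 for DNApol-delta (PolD1) and 0.11 for DNApol-alpha180 (PolA1). DNApol-epsilon255 (PolE1) had 1.22 in the Lsd1-RIP and 0.758 in the IgG-RIP library, just under the minimum. Mes4 (PolE4) stood at 0 in the Lsd1-RIP table and at 2.02 in that of IgG-RIP, with 15.4 approximate fragments there, and overlaps qkr58E-1, so no fold is given. Polymerase mRNAs were low: by FPKM no eligible one passed 2.92 in the Lsd1-RIP or 2.03 in the IgG-RIP library, under every Mcm2-7 subunit in the same library. CDC45L, which is Cdc45, the helicase cofactor, had 5.07 in the Lsd1-RIP and 3.23 in the IgG-RIP library and a ratio of 0.52 (0.24 to 0.80), above the 5 helicase activation members.

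Other replication factors, a list written beside the members, gave 34 eligible genes of 35 found, with a median ratio of 0.28 and 13 above the all-gene median. Intervals of 5 (14.7%) lay wholly above that median, against 17.5% of all eligible genes, and of 9 (26.5%) wholly below it, against 12.7%. Those 9 were Mes4, dUTPase, Claspin, rnh1, Caf1-180, Slbp, Caf1-105, mip130 and mus101. The level of 0 of Mes4 in the Lsd1-RIP library has bounds of no width. CycA, a cyclin of S phase and mitosis, was the highest by the ratio with 1 added, with an FPKM of 48.7 in the Lsd1-RIP and 26.9 in the IgG-RIP library and a ratio of 0.83 (interval 0.71 to 0.96). ago, the F-box protein that targets Cyclin E for degradation, had 6.23 in the Lsd1-RIP and 3.13 in the IgG-RIP library and a ratio of 0.81 (0.63 to 0.99). By plain FPKM, hd and tos were farther apart between libraries, and they are named after their values were seen. hd, a gene needed for eggshell gene amplification, had 2.502 in the Lsd1-RIP and 1.07 in the IgG-RIP library, 2.34-fold. tos, an exonuclease gene, had 3.29 in the Lsd1-RIP and 1.58 in the IgG-RIP library, 2.08-fold. At the low end, beside Mes4, was dUTPase, which removes dUTP from the nucleotide pool, with 20.8 in the Lsd1-RIP and 29.5 in the IgG-RIP library and a ratio of -0.48 (-0.76 to -0.21).

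**Figure D3:**
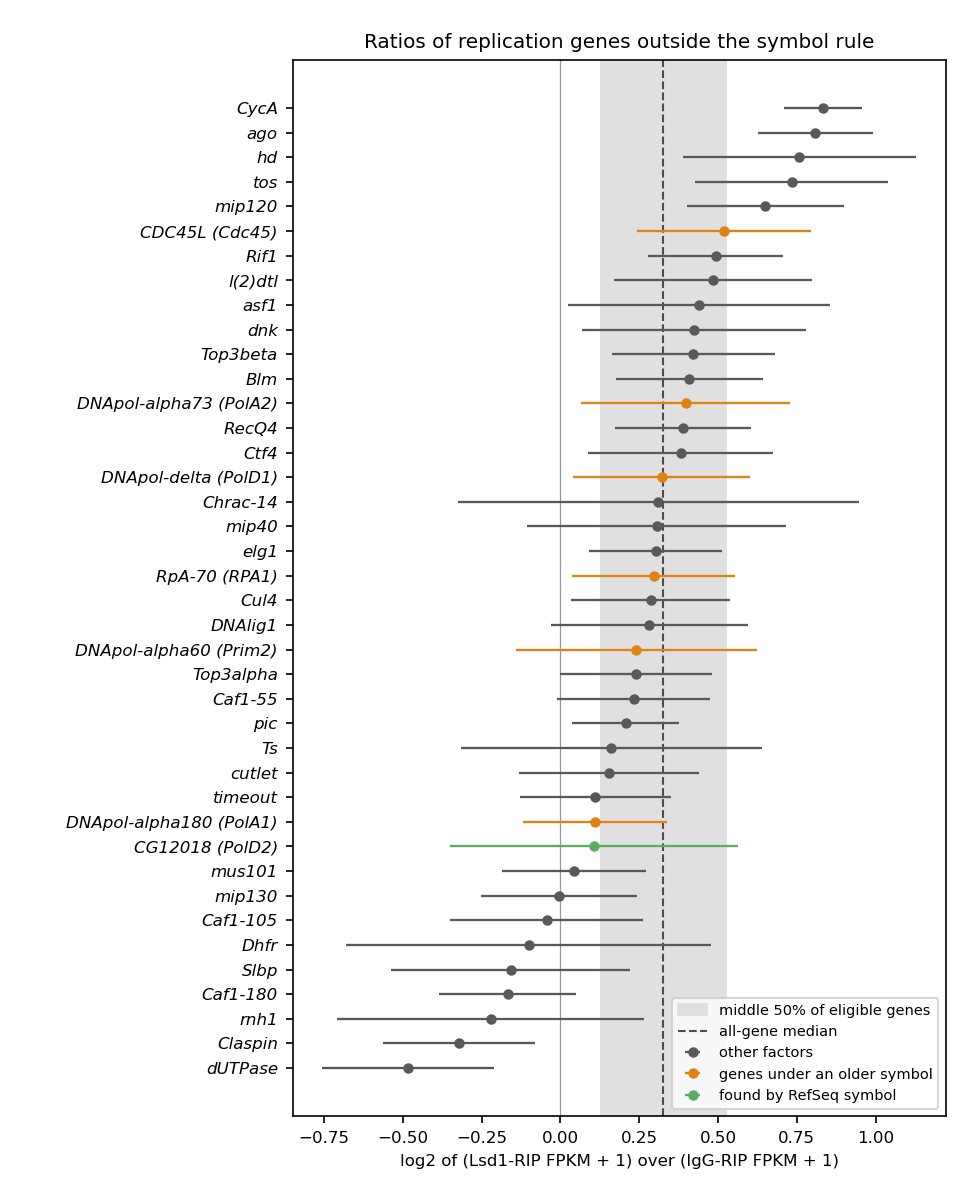
Ratios of eligible replication genes outside the symbol rule, with bars for the interval of 2 standard errors, orange for genes under an older symbol, green for one found by its RefSeq symbol and grey points for other factors. CycA at 0.83 and ago at 0.81 are highest and dUTPase at -0.48 lowest; Mes4, at 0 in the Lsd1-RIP table, is not drawn.

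Ratios moved with transcript length, among the members as among all genes. An implied length was taken from fragments per FPKM, relative to the median eligible gene, for the 35 members with 20 or more approximate fragments in each library. Across these 35, log2 of implied length and the ratio had a Pearson r of 0.44 and a Spearman rho of 0.48, against 0.35 and 0.40 over 5472 eligible genes. The points share both libraries, and the length is computed from the same FPKM and bounds, so these are descriptions. The 13 members below the median length had a median ratio of 0.27 with 4 above the all-gene median, and the 22 at or above it had 0.44 with 14 above. Set against the median of genes of like length, the 35 members had a median of 0.04. By role, this left the S phase kinases at 0.23 and transcription control at 0.16 above genes of like length, and the Mcm2-7 ring at 0.18 and clamp and loader genes at 0.14 below them. Among these 35, chif, the longest at 3.29 times the median length, was at -0.16 by this measure, and geminin, the shortest at 0.39 times, at -0.29. Psf1, Psf2 and Sld5, which had the lowest ratios of all eligible members, had too few fragments for an implied length and are left out here. Mean FPKM tracked the ratio less, with a Spearman rho of 0.16 across 39 members.

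**Figure D4:**
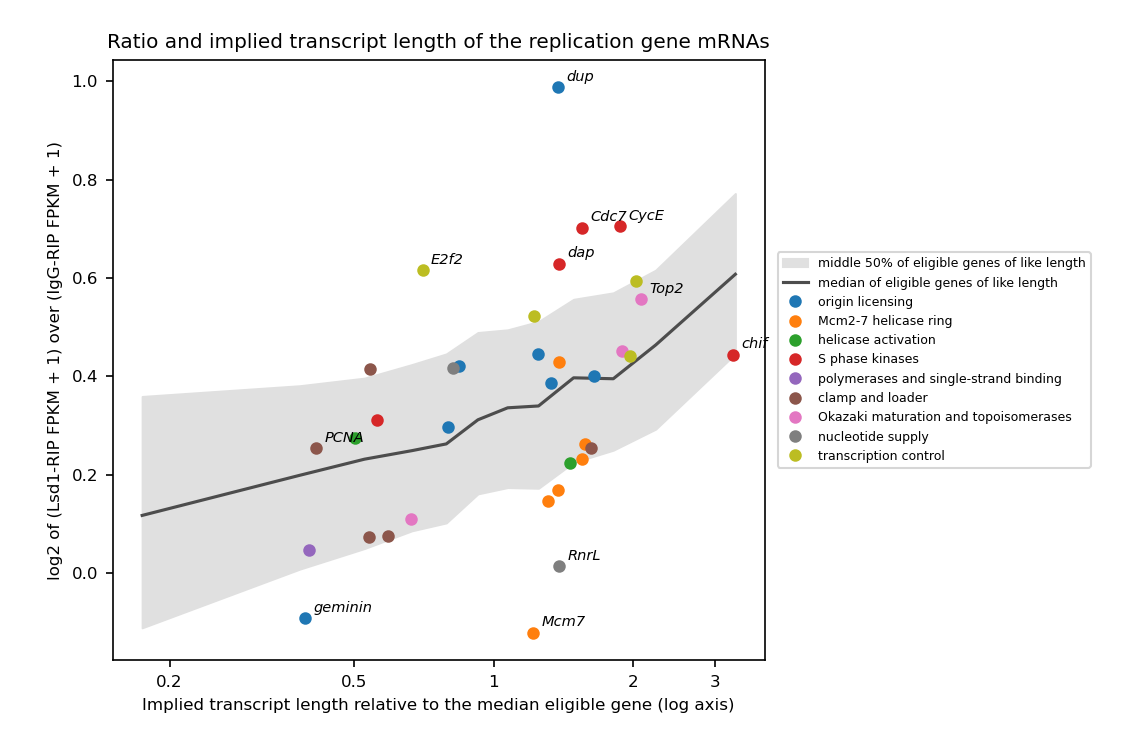
Ratio of 35 replication gene mRNAs against implied transcript length relative to the median eligible gene (log axis), coloured by role, with a line for the median and grey for the middle 50% of eligible genes in 12 groups of like length. The line is at 0.12 in the shortest group and 0.61 in the longest; dup, E2f2, CycE, Cdc7 and dap lie farthest above the line, and Mcm7, RnrL and geminin farthest below it.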

How the data were processed

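Per the file headers, each of the 2 libraries has 1 gene table with FPKM and a lower and upper bound as deposited by the authors. Per the submitters' processing notes, Cufflinks, Bowtie2 2.0.6.0 and SAMtools 0.1.18.0 were used with the dm6 build, without roles. The annotation is not given in the sources used here. Per the labels' protocols, poly(A) selection was skipped and the kit does not mark strand. Tables were joined on gene ID and locus, and loci are on dm6, counted from 1. Approximate fragments were derived by taking the bounds as 2 standard deviations of a count, and fragment ratios are scaled by the shared ratio of fragments per FPKM, 0.855. With 1 library per group, values, counts and medians are descriptions. Members, roles and lists were chosen with earlier results of these data known. All members could be named, with full values for the highest, lowest and most abundant of each role group, and of other replication genes the 2 highest, the 2 lowest and any past 2-fold, all by the ratio with 1 added. RefSeq matched all 42 members by symbol, and its table gave no sequences, so the planned promoter search was not run. Alternatives changed the pseudocount, FPKM minimum, scaling and members. Python 3.11.15, pandas 2.3.3 and numpy 2.4.6 were used.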

Additional observations from a re-analysis of the deposited data

How the results depend on the processing

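No paired analysis was possible because each group has 1 library, and no replicate could be left out for the same reason. The all-gene median ratio was 0.42 and the member median 0.44 with a pseudocount of 0.1, 0.16 and 0.15 with 5, and 0.0413 and 0.0485 with both libraries scaled to equal sums without ribosomal RNA loci. The all-gene median was 0.43 by approximate fragments, 0.19 with no FPKM minimum and 0.30 at a mean FPKM of 5 or more. By centring it is 0.00, with the members at -0.0124. It is likewise 0.00 once the median of genes of like FPKM or of like implied length is subtracted from each gene. The members were then at 0.0332 over 39 and 0.0434 over 35. The member median stood 0.11 above the all-gene median with no FPKM minimum and 0.12 above it over the 12 members at 5 or more, of which 7 were above. With overlapping members left out, 10 of 26 were above. At least 2-fold were 1 member, dup, with a pseudocount of 0.1 and 1, dup, by approximate fragments, and 1, Psf1 (lower), with equal sums. The share of all eligible genes past 2-fold is not given for these settings, so the counts are not read as a result about the members. The S phase kinases stood 0.40 above the all-gene median with a pseudocount of 0.1, with equal sums and by fragments, and 0.43 with no minimum, but 0.15 with a pseudocount of 5, 0.25 against genes of like FPKM and 0.23 against genes of like length. Helicase activation was at -0.06 against genes of like length and -0.09 by fragments, but these values rest on Mcm10 and Psf3 alone. The other members of that group had under 20 fragments in a library. Leaving those out with no other change already put the group at -0.07. With no minimum, Okazaki maturation and topoisomerases stood 0.26 and transcription control 0.36 above it, and by fragments the topoisomerase group was at -0.27. Origin licensing stood at -0.01 with a pseudocount of 5 and -0.39 at a mean FPKM of 5 or more, where geminin alone was left. Relative to the all-gene median, 24 of 39 members kept their side in every setting run for them, 12 above and 12 below, and 15 changed side in at least 1. Centring on the all-gene median could not change a side. Psf1, Psf2 and Sld5, among the 12 below, had no fragment or length setting. The share of all eligible genes that kept their side was not counted, so these counts are not read as a result about the members. Relative to the all-gene median, dup ranged from 0.41 to 0.79 and Mcm7 from -0.57 to -0.24. The cause of these shifts was not tested. The planned correction for coding length was not run, and the alternatives on implied length, on overlapping members and on members under 20 fragments were chosen after seeing the data. Under 20 fragments in a library, depth limits Orc6, Psf1, Psf2 and Sld5.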
